A study of Drosophila melanogaster with 35 samples.

Results

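The 8 Drosophila genes kug, hob, Dhc64C, puf, Atf6, gek, Sbf and conu lie outside chromosome 4 and stood among the highest DamID values of HP1, Su(var)3-9, HP4, HP5 or HP6. They were chosen on those values, so the levels of these 5 proteins at them are given as a description without a test. The genes have 9 probes, 2 of them for Atf6, out of 9993 probes on the array and 7738 genes with a probe of their own. HP3, the control factor Jra and all knock-down arrays took no part in the choice, and the values tested at the 8 genes come from those arrays. The spread behind each standard error was estimated from all arrays together, including those used for the choice.

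All arrays came from Kc167, a Drosophila cell line of embryonic origin. Each full-length protein was cloned into a plasmid as a fusion with a Myc tag and Dam, a bacterial DNA adenine methyltransferase, and the plasmid was transfected. DNA near the sites a fusion visits becomes methylated, and the methylated DNA was compared on a 2-colour cDNA array with that of cells given Dam alone, and some arrays had the dyes the other way round. In untreated cells HP1, HP3, HP4 and HP5 were mapped on 4 arrays each, and Su(var)3-9, HP6 and Jra on 3 each. Cells with HP1 knocked down gave 3 arrays of HP3 and 2 of HP6, and control cells with white knocked down gave 3 of HP3 and 2 of HP6. Every group therefore carried a transfected fusion in 1 cell line and was measured against transfected Dam, and the 4 knock-down groups shared a knock-down treatment. How far HP1 was reduced was not analysed here, and since genomic DNA was measured the cell line could not be checked by its RNA markers. Nothing in the labels tells whether replicates were separate cultures, and the p-values therefore reflect the scatter of these arrays alone, which may be technical.

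Heterochromatin is the compact part of the genome around the centromeres, on chromosome 4 and in scattered places on the chromosome arms. HP1 binds histone H3 methylated at lysine 9, a mark that Su(var)3-9 places, and it recruits partner proteins. Jra, the fly Jun protein, is a transcription factor that was mapped as a protein outside heterochromatin.

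Values are log ratios of fusion over Dam, centred on the median of each array and read here as log2, since the sources used here do not state the base. A value of 0 means as much methylation by the fusion as by Dam alone at the typical probe. A call means a limma adjusted p under 0.05 over 9934 probes, and fitted values carry their standard error (SE). The probes for the genes of HP1, HP4, HP5 and Jra lay high on their own arrays, and the genes of Su(var)3-9 and HP6 were not checked here. Lhr encodes HP3, and its probe read 0.09 on the array labelled HP3 replicate 2 and 3.52 or more on the other HP3 arrays. The HP4 probe read 4.81 on the array labelled HP6 replicate 3 and 1.25 or less on all other arrays of another fusion. Both arrays differ from their groups at most of the 9 probes too. The levels of HP3 and HP6 and the counts of calls are therefore given with and without them, while correlations between profiles include them.

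The genes are spread over 3 chromosome arms, and 2 of them lie beside a centromere. Counted over protein-coding genes of the Release 6 gene table, conu is the gene at position 30 and Atf6 the gene at position 39 from the centromere of arm 2R, among 2851. The description as genes of the euchromatic arms therefore does not hold by position for conu and Atf6. On the same arm gek stands at position 2685, close to the telomere. Arm 3L, with 2739 genes, holds kug at position 385, Dhc64C at 2146 and hob at 2354. Arm 3R, with 3398 genes, holds Sbf at 947 and puf at 2522. The 6 genes other than Atf6 and conu are called the 6 arm genes in what follows.

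At these genes HP4 had the highest mean at 6 of 9 probes, HP3 the second lowest at all 9, and Jra the lowest at all 9. Without the arrays labelled HP3 replicate 2 and HP6 replicate 3, HP3 was second lowest at 7 probes and HP6 at the 2 of Atf6. The median of the 9 probe means was 3.60 for HP4, 3.10 for HP1, 2.97 for HP6, 2.93 for HP5, 2.84 for Su(var)3-9, 1.47 for HP3 and -0.54 for Jra. Between neighbours in this order the arrays overlapped at all 9 probes from HP4 through HP1 and HP6 to HP5. They overlapped at 7 for HP5 with Su(var)3-9, at 3 for Su(var)3-9 with HP3 and at 1 for HP3 with Jra. The choice of the genes favours a gap between Su(var)3-9 and HP3, and the shares over all probes were not counted. Without the 2 doubted arrays the medians of HP6 and HP3 were 2.33 and 1.94, so HP6 then came after HP5 and Su(var)3-9. The fusions also differ in their range over all probes tested, so the order is not particular to these genes. With all arrays, the 99th percentile of the probe means was 2.90 for HP4, 2.72 for HP1 and 2.41 for Su(var)3-9. It was 2.36 for HP5, 2.31 for HP6, 1.47 for HP3 and 1.37 for Jra. Ranked among 9934 probes, the 9 means held places 8 to 127 for HP1, 15 to 87 for Su(var)3-9, 7 to 152 for HP4, 10 to 131 for HP5 and 1 to 113 for HP6. For HP3 the places ran from 9 to 286, and for Jra from 4409 to 9855. Without the 2 doubted arrays those of HP6 ran from 3 to 162 and those of HP3 from 10 to 281. The choice had no single limit: outside chromosome 4, hob and kug were the sixth and eighth highest probes for HP1. Between them stood p120ctn at 3.36, and just above hob the gene of HP1 itself at 3.53. The probe of the HP1 gene read 2.86 to 4.45 on the HP1 arrays and 1.63 or less on all arrays of another fusion. Whether its value reflects binding at that gene was not tested. At the other end Sbf had an HP1 mean of 2.57 and entered through Su(var)3-9, at 3.32 the seventh highest outside chromosome 4. CG5532, an arm gene at position 2590 on 2R that is not among the 8, had an HP1 mean of 3.19.

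**Figure D1:**
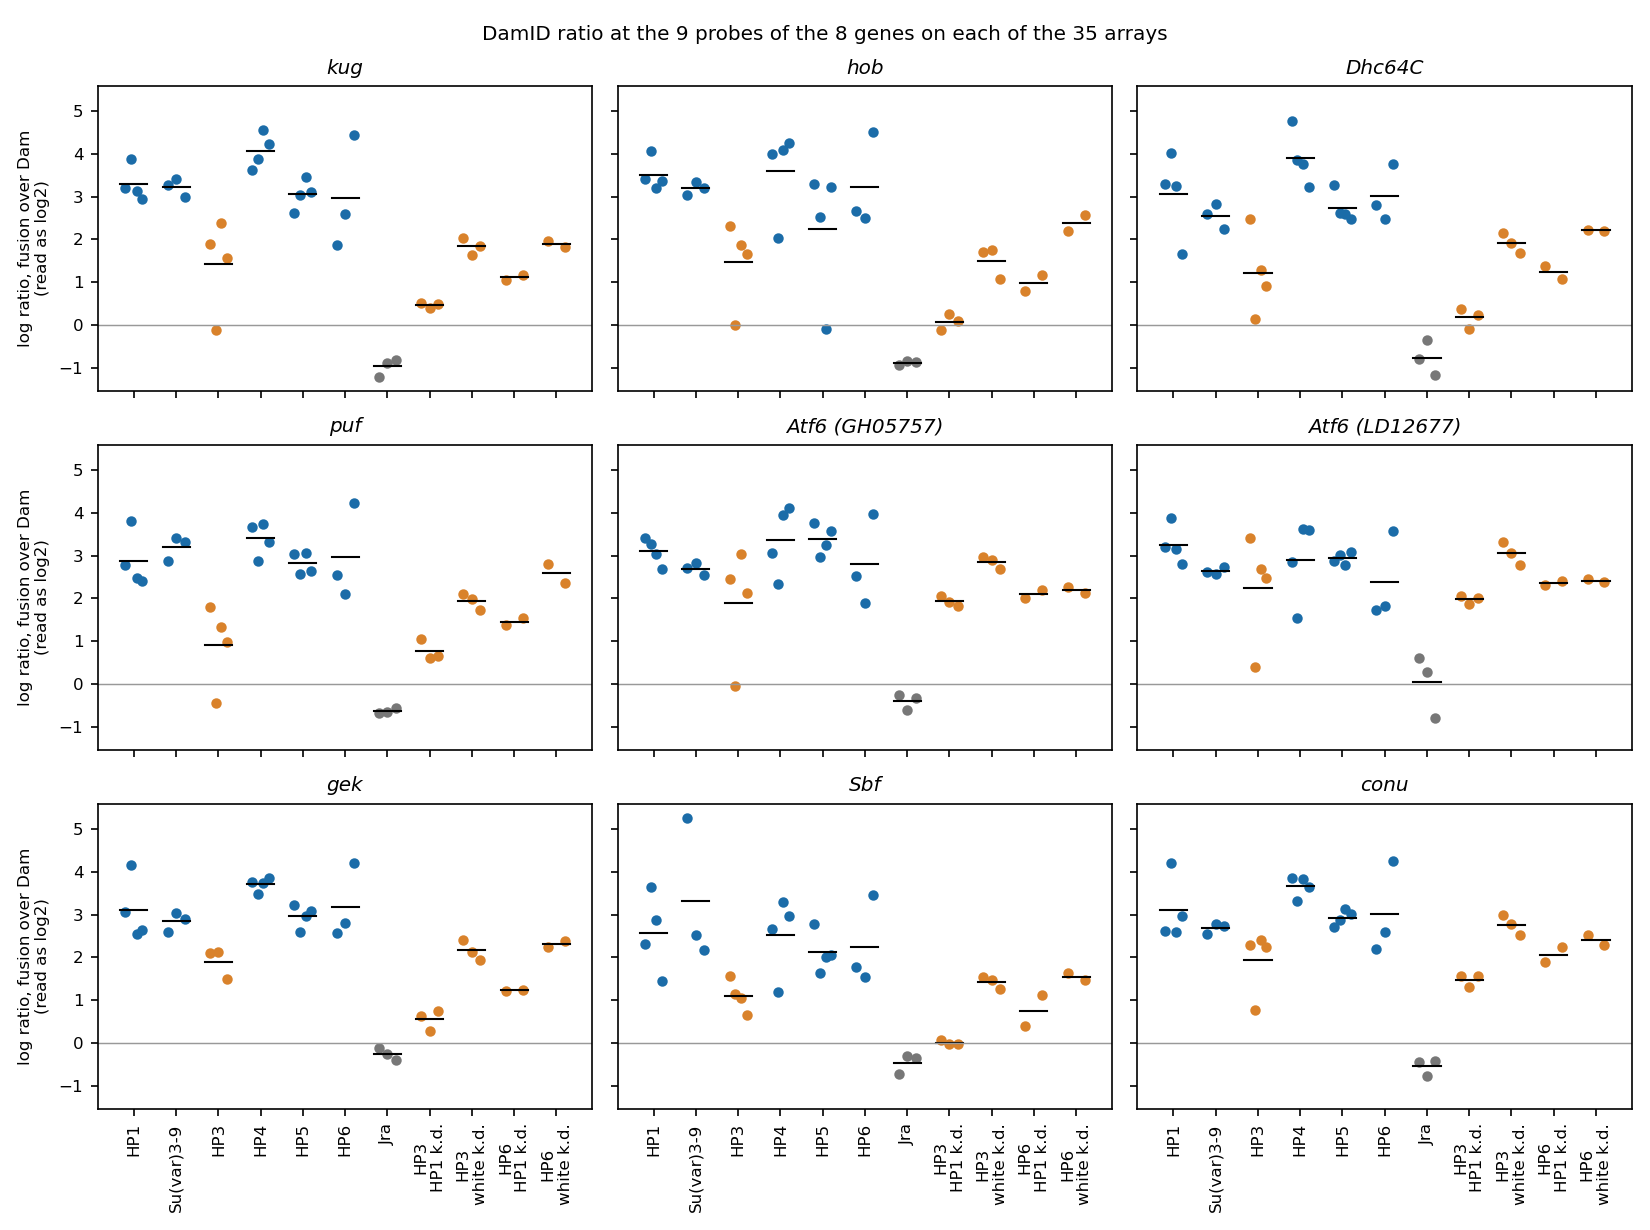
Log ratio of fusion over Dam (read as log2, vertical axis) at the 9 probes of the 8 genes on each of the 35 arrays, by group. Points are arrays and bars are group means, in blue for the 5 proteins on which the genes were chosen, in orange for HP3 and the knock-down groups, and in grey for Jra; the mean of HP3 lies below those of the blue groups at every probe, although single arrays overlap, Jra lies near or below 0, and HP3 after HP1 knock-down lies below HP3 after white knock-down at every probe.

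The first genes have products at the cell surface and in transport inside the cell. The gene kug encodes Fat2, an atypical cadherin that aligns the migration of follicle cells in the fly egg chamber. On the 4 HP1 arrays its probe GM08777 read 3.20, 3.89, 3.14 and 2.96, and on the 4 HP4 arrays 3.62, 3.89, 4.55 and 4.22. The Jra arrays read -1.21, -0.87 and -0.81. HP3 read 1.89, -0.10, 2.38 and 1.56, where the low value is that of replicate 2. After white knock-down HP3 read 2.03, 1.65 and 1.86, and after HP1 knock-down 0.51, 0.40 and 0.50. The groups do not overlap, and the 3 arrays after HP1 knock-down lie close together. HP6 read 1.96 and 1.82 after white knock-down and 1.05 and 1.18 after HP1 knock-down, again without overlap.

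The gene hob encodes a large lipid transfer protein that secretory cells need. Its probe GH07785 had 3.42, 4.06, 3.20 and 3.36 for HP1, which is the highest HP1 mean of the 9 probes at 3.51 ± 0.38 (SD, n = 4). Its HP5 values were 3.29, 2.53, -0.08 and 3.22, so replicate 3 alone shows no excess of HP5 there. For HP3 the arrays gave 2.32, 0.01, 1.87 and 1.67, with replicate 2 near 0. Knock-down of white left HP3 at 1.71, 1.74 and 1.07, and knock-down of HP1 left it at -0.12, 0.27 and 0.10. Those last 3 values surround 0, so HP3 was at the level of the typical probe there. HP6 was 2.19 and 2.56 after white knock-down and 0.80 and 1.18 after HP1 knock-down.

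The gene Dhc64C encodes the heavy chain of cytoplasmic dynein, the motor that moves cargo towards the minus ends of microtubules. HP1 at its probe GH15453 read 3.30, 4.02, 3.24 and 1.67, and HP4 4.76, 3.86, 3.76 and 3.23. HP1 replicate 4 stands apart at the low end, while the HP4 values have no such array. The HP3 arrays of untreated cells had 2.48, 0.14, 1.30 and 0.91. HP3 read 2.15, 1.91 and 1.68 after white knock-down against 0.38, -0.08 and 0.24 after HP1 knock-down, the widest gap between these groups among the 9 probes. For HP6 the values were 2.23 and 2.20 against 1.38 and 1.08.

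Among the genes for signalling proteins, gek encodes a protein kinase that acts under the GTPase Cdc42 on the actin cytoskeleton. Its probe LD24220 read 3.07, 4.16, 2.53 and 2.63 for HP1, and 3.75, 3.48, 3.74 and 3.85 for HP4. Of the 9 probes HP4 varied least at this one, with 3.71 ± 0.16 (SD, n = 4). HP3 read 2.09, 2.12 and 1.50 on replicates 1, 3 and 4, and replicate 2 has no value at this probe, so the doubted array does not enter the HP3 mean of gek. In the knock-down series HP3 was 2.41, 2.14 and 1.95 with white knocked down and 0.64, 0.27 and 0.74 with HP1 knocked down. HP6 read 2.23 and 2.37 against 1.22 and 1.25, so that both fusions were lower on every array with HP1 knocked down.

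The gene Sbf encodes a myotubularin-like pseudophosphatase that activates the GTPase Rab21 in membrane traffic. It is the lowest of the genes for HP1, HP4, HP5 and HP6. HP1 at probe SD10541 read 2.31, 3.65, 2.87 and 1.45, and Su(var)3-9 read 5.26, 2.53 and 2.16. The high place of Sbf for Su(var)3-9 thus owes most to replicate 1. HP3 read 1.57, 1.14, 1.05 and 0.65, and here replicate 2 lies within the range of the others. After white knock-down HP3 was 1.55, 1.48 and 1.27, and after HP1 knock-down 0.06, -0.03 and -0.02, which is the lowest mean of the 9 probes. HP6 read 1.63 and 1.47 against 0.39 and 1.12.

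The gene conu, beside the centromere of 2R, encodes a protein that binds Moesin at the cell cortex. HP1 at its probe LD04957 was 2.62, 4.21, 2.58 and 2.97. HP3 in untreated cells was 2.30, 0.76, 2.41 and 2.25, with replicate 2 apart. After white knock-down HP3 read 2.99, 2.78 and 2.52, and after HP1 knock-down 1.57, 1.30 and 1.56. HP3 was lower after HP1 knock-down but stayed above 1 on all 3 arrays, unlike at Dhc64C, gek, hob, kug and Sbf. HP6 read 2.52 and 2.30 against 1.88 and 2.24, groups that do not overlap but differ by little.

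The remaining genes act in protein turnover and in the stress response of the endoplasmic reticulum. The gene puf encodes a ubiquitin-specific protease that stabilises the Myc protein in flies. Its probe AT30546 read 2.77, 3.81, 2.47 and 2.41 for HP1, and 2.87, 3.41 and 3.31 for Su(var)3-9. For HP3 it read 1.81, -0.44, 1.33 and 0.99, which gave the lowest HP3 mean of the 9 probes, 0.92 ± 0.97 (SD, n = 4). Without replicate 2 that mean was 1.38. HP3 stood at 2.09, 1.99 and 1.72 after white knock-down and at 1.05, 0.60 and 0.64 after HP1 knock-down. HP6 was 2.80 and 2.37 against 1.37 and 1.55, the highest HP6 mean of the 9 probes after white knock-down.

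The gene Atf6 encodes a transcription factor that is held in the membrane of the endoplasmic reticulum and released when unfolded proteins accumulate. It has 2 probes, which read 3.42, 3.27, 3.03 and 2.69 (GH05757) and 3.20, 3.87, 3.15 and 2.79 (LD12677) for HP1. HP3 had 2.44, -0.06, 3.03 and 2.12 at GH05757 and 3.42, 0.39, 2.70 and 2.48 at LD12677, so replicate 2 is low at both. Without replicate 2 the HP3 means are 2.53 and 2.86, the highest of the 9 probes. After white knock-down HP3 was 2.98, 2.90 and 2.68 at GH05757 and 3.32, 3.06 and 2.78 at LD12677. After HP1 knock-down it was 2.06, 1.91 and 1.83 at GH05757 and 2.07, 1.86 and 2.01 at LD12677. The groups do not overlap, yet HP3 stayed near 2 at both probes. HP6 read 2.27 and 2.14 after white knock-down and 2.02 and 2.19 after HP1 knock-down at GH05757, and the 2 knock-downs overlap there, as they do at LD12677.

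The first test asked whether HP3, which was not used to choose the genes, is present at them. In untreated cells HP3 lay above 0 at 8 of 9 probes, that is at 7 of the 8 genes, where 4.38% of all probes passed in that direction, and below 0 at none, where 2.31% did. The fitted values ran from 0.92 ± 0.26 (SE, n = 4) at puf to 2.25 ± 0.32 (SE, n = 4) at Atf6 probe LD12677, with limma adjusted p of 0.0257 and 2.18e-05. Sbf did not pass, at 1.11 ± 0.36 (SE, n = 4) and a limma adjusted p of 0.0583. The median of the 9 probes was 1.47 against 0.02 over all probes. Without the arrays labelled HP3 replicate 2 and HP6 replicate 3 the count was again 8 of 9. In a fit on the 4 HP3 arrays alone it was 0 of 9, and without replicate 1 it was 5. With the arrays scaled to the same spread it was 9, and of all probes 1103 lay above and 951 below 0, against 435 and 229 unscaled.

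The arrays after white knock-down are a separate set for the same question. HP3 passed above 0 at 9 of 9 probes, where 7.35% of all probes did and 2.88% passed below 0, from 1.45 ± 0.42 (SE, n = 3) at Sbf to 3.11 ± 0.37 (SE, n = 3) at Atf6 probe LD12677. The highest limma adjusted p among them was 0.0219. HP6, for which the genes were chosen on untreated arrays, passed at 8 of 9 probes after white knock-down, where 4.21% of all probes did. The highest of these was puf at 2.58 ± 0.36 (SE, n = 2), and Sbf at 1.55 ± 0.51 (SE, n = 2) did not pass, with a limma adjusted p of 0.0752. HP6 was called at 3 of 9 probes without replicate 1 of that group and at 7 without replicate 2. Over the 9 probes single arrays of HP6 after white knock-down read from 1.47 at Sbf to 2.80 at puf.

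The array labelled HP6 replicate 3 moves the level of untreated HP6 at all 9 probes. It read 3.45 to 4.50 there, against 1.54 to 2.80 on the other 2 arrays, so the groups of values do not overlap. Without it the HP6 mean of gek was 2.68, that of Dhc64C 2.64 and that of hob 2.58, in places 3, 4 and 5 of all probes. The HP6 mean of Atf6 probe LD12677 was then 1.78, in place 122, and that of Sbf 1.65, in place 162.

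Jra passed above 0 at none of the 9 probes, where 10.8% of all probes did. It lay below 0 at 1 probe, that of kug with -0.89 ± 0.30 (SE, n = 3) and a limma adjusted p of 0.0379, where 6.3% of all probes did. The fitted value was negative at 8 of 9 probes, and the exception was Atf6 probe LD12677 at 0.09 ± 0.37 (SE, n = 3). On single arrays that probe read 0.62, 0.28 and -0.78, while the other Atf6 probe read -0.26, -0.60 and -0.34. The median of the 9 probes was -0.47 against -0.01 over all probes. The call for kug was lost when any of the 3 Jra arrays was left out, and without the 2 doubted arrays kug, Dhc64C and puf passed below 0.

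The study's own contrast asked whether HP3 and HP6 depend on HP1. HP3 was lower after HP1 knock-down than after white knock-down at all 9 probes. The arrays of the 2 groups overlapped at none of them. The share of all probes whose arrays separate in this way was not counted. HP3 was called lower at 4 of 9 probes, where 0.443% of all probes passed in that direction and 7.43% passed as higher. The largest of these was Dhc64C, which fell by 1.73 ± 0.46 (SE, n = 3 and 3) with a limma adjusted p of 0.0142. At gek HP3 fell by 1.61 ± 0.33 (limma adjusted p = 0.00209), at kug by 1.38 ± 0.42 (limma adjusted p = 0.0391) and at conu by 1.28 ± 0.36 (limma adjusted p = 0.0239). The differences at Sbf and hob were of like size, at -1.43 ± 0.58 and -1.42 ± 0.62, but their limma adjusted p were 0.156 and 0.192. At puf the difference was -1.17 ± 0.42 with a limma adjusted p of 0.0876, and at Atf6 it was -0.92 ± 0.47 and -1.08 ± 0.52 with 0.307 and 0.261.

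The median difference of the 9 probes was -1.38, against -0.04 over all probes. Ordered by the size of the drop among 9934 probes, Dhc64C was in place 5, gek 13, Sbf 37, hob 38, kug 45, conu 59 and puf 86, and the Atf6 probes were in places 119 and 182. Arrays of the same number and dye differed in the same direction at 9 of 9 probes for each of the 3 numbers, with medians of -1.48, -1.48 and -1.07. The count of 4 depends on single arrays: it was 1 without replicate 2 of the HP1 knock-down or replicate 1 of the white knock-down, and 2 without replicate 3 of the white knock-down. It was 2 with the arrays scaled to the same spread, when Dhc64C and gek passed, 5 without the 2 doubted arrays, when puf passed as well with a limma adjusted p of 0.00863, and 9 in a fit on the knock-down arrays alone.

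**Figure D2:**
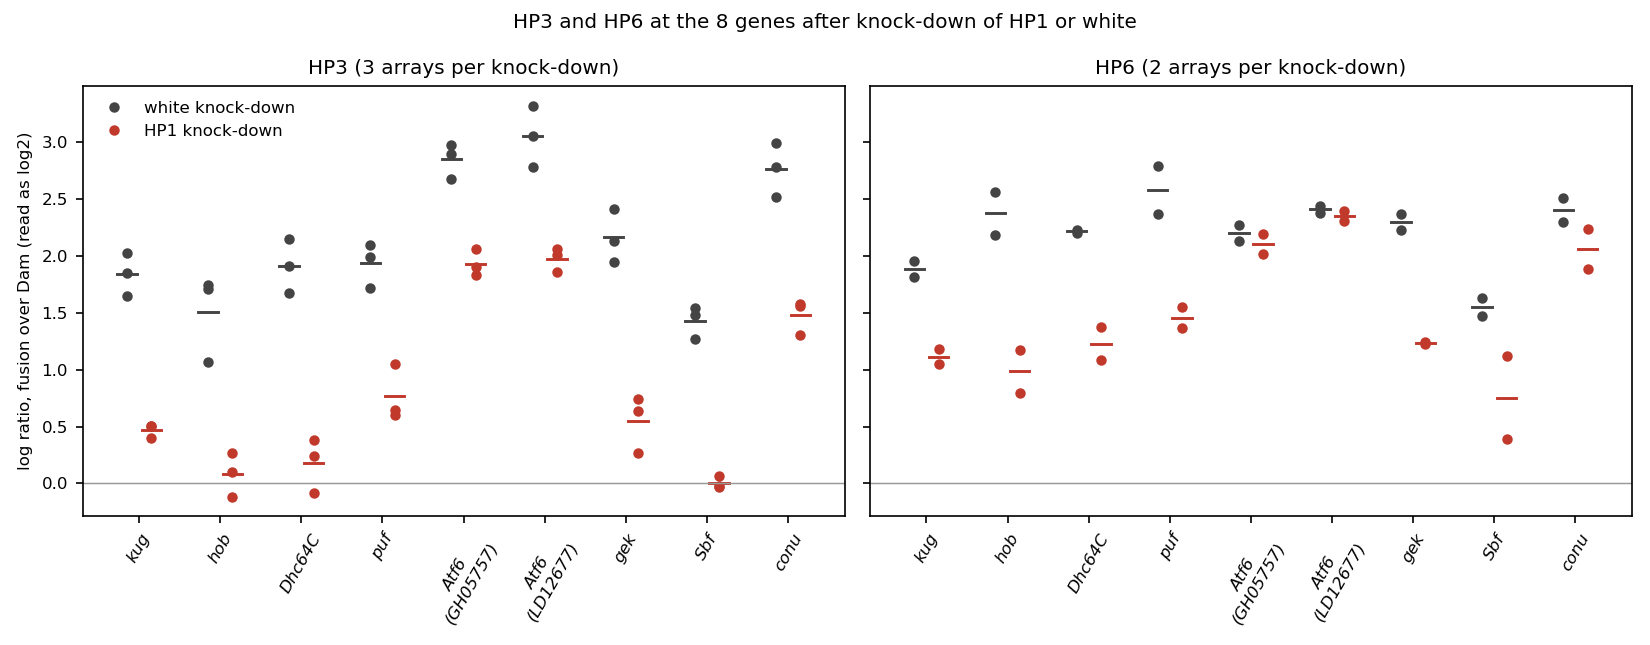
Log ratio (read as log2) of HP3 and of HP6 at the 9 probes of the 8 genes on each array after white knock-down and after HP1 knock-down; points are arrays, short bars are group means, and white knock-down is dark and HP1 knock-down red. HP3 after HP1 knock-down is between -0.12 and 1.05 at the 6 arm genes and between 1.30 and 2.07 at Atf6 and conu, and HP6 at Atf6 reads nearly alike in both knock-downs.

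What was left of HP3 was higher at Atf6 and conu than at the 6 arm genes. On the 18 single values of the 6 arm genes after HP1 knock-down, HP3 was between -0.12 and 1.05, with means from 0.00 at Sbf to 0.77 at puf. At Atf6 and conu the 9 values were between 1.30 and 2.07, with means from 1.48 to 1.98, so the 2 sets of genes do not overlap. Among all probes, HP3 at Dhc64C went from place 159 after white knock-down to 3479 after HP1 knock-down, and at hob from 249 to 4118. HP3 at Atf6 went from places 33 and 20 to 181 and 160, and at conu from 45 to 453. After white knock-down Atf6 and conu already had more HP3 than the 6 arm genes, 2.52 to 3.32 against 1.07 to 2.41 on single arrays. With 2 genes against 6, position and this higher level of HP3 cannot be told apart. The change itself was -1.17 to -1.73 at the 6 arm genes and -0.92 to -1.28 at the 3 probes of Atf6 and conu, ranges that overlap, and no test of this difference between genes was made.

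HP6 gave no call in this contrast. None of the 9 probes passed in limma for HP6, where 2 of all 9934 probes passed as lower (0.0201%) and 0 as higher, and at an unadjusted p under 0.05 puf and gek were the 2 of the 9 that passed, among 173 probes in all. The difference in HP6 was largest at hob, with -1.39 ± 0.76 (SE, n = 2 and 2), and stood at -1.12 ± 0.51 at puf and -1.07 ± 0.41 at gek. At the 6 arm genes and at conu the 2 groups of HP6 arrays did not overlap. With 2 arrays per group this separation can easily arise without a difference, and its share over all probes was not counted. At Atf6 the 2 groups overlapped, with differences of -0.10 ± 0.57 and -0.05 ± 0.63. The places of Atf6 among all probes were 74 and 36 after white knock-down and 70 and 27 after HP1 knock-down. The HP6 places of conu were 37 and 81, and those of the 6 arm genes were 16 to 230 after white knock-down and 207 to 694 after HP1 knock-down.

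Whether the knock-down moved HP3 and HP6 differently was tested as an interaction. It passed at none of the 9 probes and at none of all 9934 in limma, with 499 probes at an unadjusted p under 0.05, none of them among the 9. The estimates of HP6 minus HP3 were 0.04 ± 0.98 (SE) at hob and 0.04 ± 0.66 at puf, and 0.82 ± 0.74 and 1.02 ± 0.82 at the probes of Atf6. At conu the estimate was 0.94 ± 0.58. With these standard errors the 2 effects could not be told apart at any of the genes.

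Chromosome 4 and the genes nearest the centromeres, counted without the 8 genes, are set beside them as a description. On chromosome 4 the 60 probes had a median HP3 of 1.44 after white knock-down and 1.29 after HP1 knock-down, with 0 probes called lower and 4 called higher. Restricted to the 39 with HP3 over 1 after white knock-down, a choice that favours a lower value afterwards, the median change was -0.52, again with 0 called lower. The 100 genes nearest each centromere of the 5 large arms had 266 probes with a median HP3 of 0.27 after white knock-down and 0.32 after HP1 knock-down, a median change of -0.17, 7 called lower and 16 called higher. Among them the 80 probes with HP3 over 1 after white knock-down changed by a median of -0.62, with 7 called lower. The 9 probes of the 8 genes, all of which had HP3 over 1 after white knock-down, changed by a median of -1.38. Of HP1 the chromosome 4 probes had a median of 2.01 and the 8 genes 3.10, so the sets differ in their level of HP1 too.

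**Figure D3:**
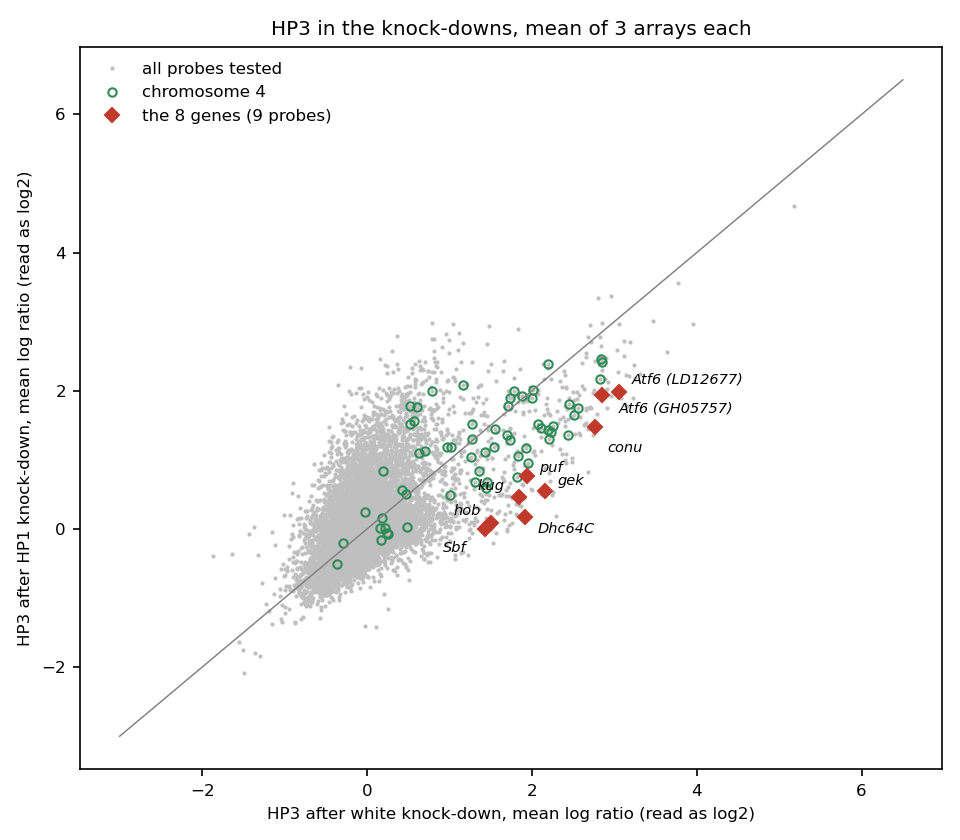
Mean HP3 log ratio (read as log2) after white knock-down (horizontal axis) and after HP1 knock-down (vertical axis), 3 arrays each, for all probes tested (grey), chromosome 4 (green circles) and the 8 genes (red diamonds); the line marks equal values. All 9 red points lie below the line, Atf6 and conu with 1.48 or more on the vertical axis and the 6 arm genes with 0.77 or less.

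HP1 at the genes around the 8 is also given as a description, since the 8 were chosen on the same HP1 arrays. The 3 nearest measured genes on each side make 47 genes with 52 probes, and HP1 was above 0 at 19 of the 52, where 8.48% of all probes passed, and below 0 at none, where 2.95% did. All 12 neighbour probes of Atf6 and conu passed, with a median HP1 of 2.15. Of the 40 probes around the 6 arm genes 7 passed, which is 17.5%, with a median of 0.13. HP1 was thus called at each of the 6 nearest measured genes of Atf6 and of conu, and at 1 or 2 around each of the others.

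The gene gek lies between snama, which encodes a ubiquitin ligase, with HP1 at 2.62 ± 0.65 (SD, n = 4), and enok, a histone acetyltransferase gene, at 3.07 ± 0.87 (SD, n = 4). The measured genes beyond them, CG16786 and CG3253, had 0.24 and 0.33. Next to kug, CG14183 had an HP1 mean of 2.51, and on the other side CG7668 had 0.33 and 0.11 at its 2 probes. LeuRS-m, a mitochondrial leucyl-tRNA synthetase gene next to Dhc64C, had 1.37. Around the other genes the called neighbour was a little further off. The gene gry, 4 genes from hob, had 2.68. The gene atl, which encodes a membrane fusion GTPase and lies 2 genes from puf, had 1.54, and prd1, 2 genes from Sbf, had 2.05. On the other side the genes directly next to hob, puf and Sbf were measured and not called. There nSMase beside hob had 0.14, ash2 beside puf 0.37, and ClC-a beside Sbf 0.45 and 0.01 at its 2 probes.

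Counting the nearest measured gene on each side, all 6 arm genes had at least 1 called for HP1, and 7 of their 12 nearest genes were called. Beyond the 100 genes nearest each centromere, HP1 was called at 475 of 7286 measured genes (6.52%). Among the other 469 of those genes, 195 had a nearest gene called (41.6%). Among the 6811 genes not called for HP1, 686 had one (10.1%). These are descriptions, since the 6 genes were chosen for high HP1 among other proteins.

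**Figure D4:**
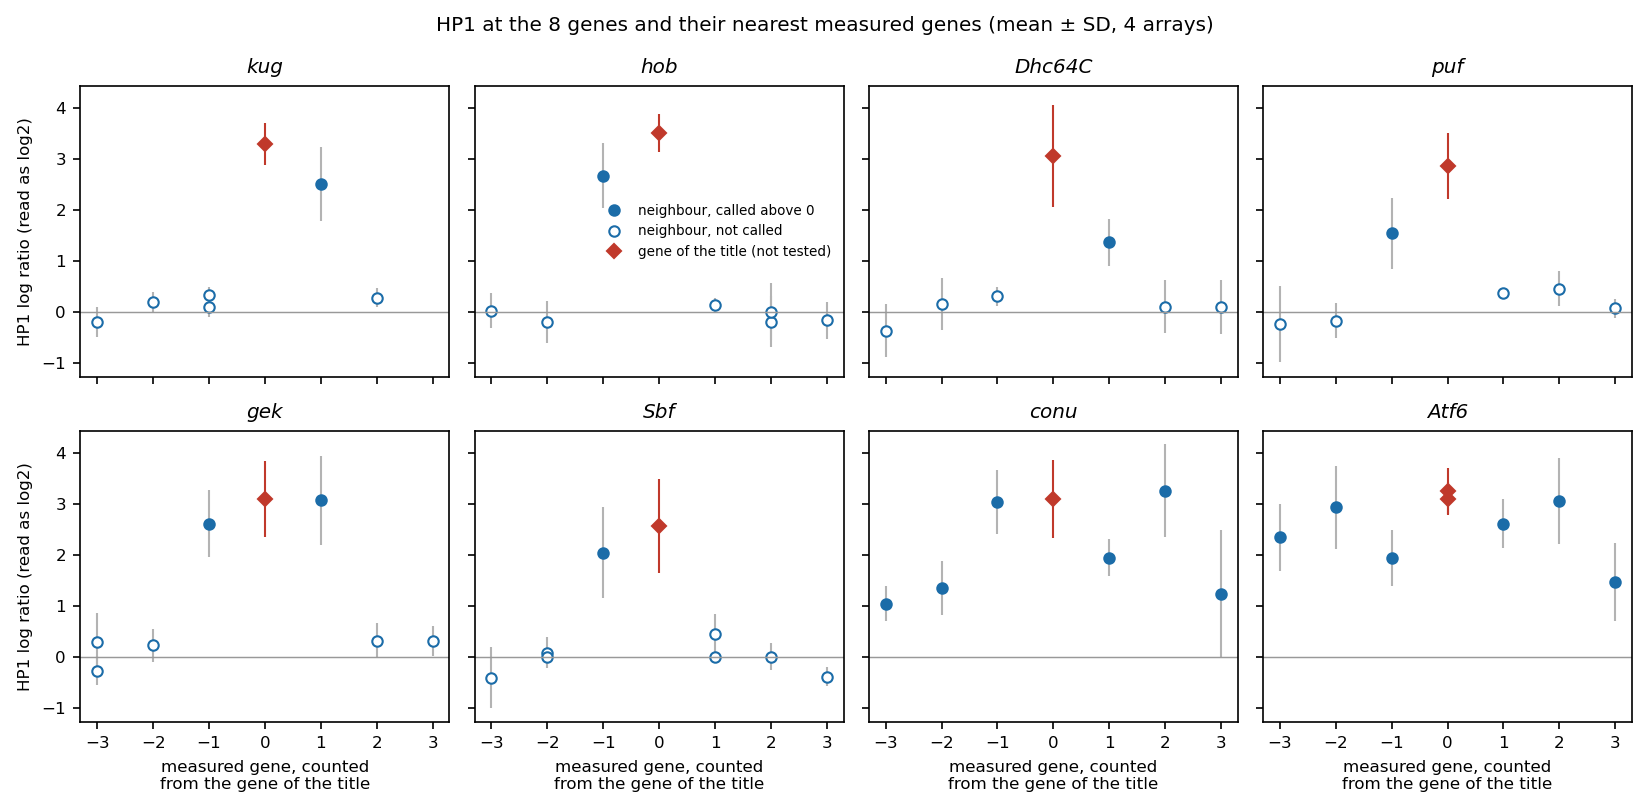
Mean HP1 log ratio (read as log2, 4 arrays) at each of the 8 genes and its 3 nearest measured genes on either side, in the order of the genes on the chromosome; red diamonds are the 8 genes, blue neighbours are filled where limma passed at an adjusted p under 0.05, and bars are SD. All 12 neighbour probes of Atf6 and conu passed, and 7 of 40 around the other 6 genes.

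Around Atf6 and conu the other proteins did not follow HP1 at every gene. The highest HP1 around Atf6 was at sxc, the O-GlcNAc transferase gene, with 3.05, and the lowest at CG10465 with 1.47. Su(var)3-9 was 2.98 at sxc but -0.24 at CG10465, and at d4, which had an HP1 mean of 2.61, it was -0.18. Around conu, CG17528 had 3.26 of HP1 and 2.67 of Su(var)3-9, and Nipped-B, the gene of the cohesin loader, had 3.04 and 2.71. CG17486, with the lowest HP1 there at 1.05, had a Su(var)3-9 mean of -1.18 and an HP4 mean of -1.12. Atf6 and conu themselves had Su(var)3-9 means of 2.64 to 2.70, so they stand with sxc, CG17528 and Nipped-B. Over the 7 called neighbours of the 6 arm genes Su(var)3-9 was between 0.51 and 2.60.

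The neighbours called for HP1 also differed in HP3 after HP1 knock-down. The 7 called neighbours of the 6 arm genes had a median HP3 of 1.24 after white knock-down and 0.37 after HP1 knock-down, with the latter between -0.14 and 0.48. The 12 neighbours of Atf6 and conu had medians of 2.59 and 2.02, and their values after HP1 knock-down were between 1.06 and 2.49. These ranges do not overlap, but they cover only the neighbours called for HP1. Neighbours of the 6 arm genes that were not called for HP1 reached 2.42 (CG32276) and 1.95 (eIF1) after HP1 knock-down. All neighbours of the 6 arm genes together therefore overlap those of Atf6 and conu. Of the 52 neighbour probes 1 passed as lower, where 0.443% of all did, and 4 as higher, where 7.43% did. The lower one was gry, with -1.37 ± 0.40 (SE, n = 3 and 3) and a limma adjusted p of 0.0312. The higher ones, none of them called for HP1, were CG32276 (1.60), eIF1 (1.33) and nSMase (0.78) near hob and ash2 (0.85) next to puf, with limma adjusted p from 0.00323 to 0.0458. No neighbour of Atf6 or conu passed either way.

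The 8 genes resembled each other over the 11 group means. The 28 pairs had a median Pearson correlation of 0.945, from 0.787 for Atf6 with Sbf to 0.989 for Dhc64C with gek. These correlations are descriptions over 11 group means that share arrays and the Dam reference, and the choice of the genes fixed part of them. Most like the mean profile of the 8 genes were CG14183 (0.995), cyst (0.993), CG10631 (0.993), CG2926 (0.991) and CG4841 (0.990). For single genes the most alike were CG10631 for kug (0.995) and for gek (0.993), enok for Dhc64C (0.995), mu2 for puf (0.988), CG41099 for conu (0.988), sxc for Atf6 (0.987), CG8475 for Sbf (0.986) and the ubiquitin ligase gene Ufd4 for hob (0.984). CG14183 lies next to kug and sxc lies 3 genes from Atf6, and enok lies next to gek.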

How the data were processed

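The authors deposited 1 log ratio (fusion over Dam) per probe and array, read here as log2. The sources used here do not name its base, the scanner, the background correction, the normalisation or a build. Signal over background is unknown. The table holds 9993 probes, with 434 values missing (0.124%).

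Arrays were grouped by the labels into 11 groups and centred on their medians. All 35 arrays entered 1 limma model (3.58.1, R 4.3.3) with a mean for each group and a term for the dye, for 9934 probes with at least 2 values in every group. Tests were two-sided, p-values were adjusted per comparison by Benjamini and Hochberg's method, and the threshold was 0.05. The procedure was tested on simulated data.

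Probes were named through the platform's gene table, and 8682 have 1 gene, 298 several and 1013 are unnamed here. A RefSeq table of the Release 6 assembly gave current symbols, arms and gene order only. It held 8539 of the probes with 1 gene.

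The genes and the gene lists were chosen with earlier results of these data known. Named are the 8 genes, the extremes and called genes among the 3 measured neighbours on each side, the genes most alike over the group means, and called genes of fixed lists of relatives, of which 1 list is not reported here. The genes CG16786, CG3253, CG7668, d4, Nipped-B, CG32276, eIF1, nSMase, ash2 and ClC-a were named after their values were seen. The same holds for genes used to mark the limits of the choice. Alternatives were no dye term, no centring, equal spread, only the arrays compared, only probes with all values, leaving out each array or the 2 doubted arrays, and a block for the replicate number. No sequences are printed, since none were supplied for these probes.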

Additional observations from a re-analysis of the deposited data

Results flagged for a closer look

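Within groups of 4 arrays, 35 combinations of probe and group were examined for a single array far from the others, and 2 were found, where chance gives about 1 in 20. At hob, HP4 replicate 2 read 2.03 where the other HP4 arrays read 4.00 to 4.26, a gap of 0.883 of the whole range. That array correlated with the other HP4 arrays at 0.400 to 0.422 over all probes. At conu, the array labelled HP3 replicate 2 read 0.76 where the other HP3 arrays read 2.25 to 2.41, a gap of 0.903 of the range. It correlated with the other HP3 arrays at 0.0292 to 0.0770 over all probes. Whether the features of either array bear on these values was not tested.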

How the results depend on the processing

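Over 7 comparisons and all settings, the 9 probes gave 677 values, of which 596 kept direction and side of the threshold, 45 lost a call, 21 gained one and 15 changed sign. The causes were not tested, and some of the fits also had fewer arrays.
Scaled to equal spread, Jra was below 0 at 0 of the 9 probes and HP3 lower after HP1 knock-down at 2. Over all probes 1103 were above 0 for HP3, 1426 for HP3 and 1011 for HP6 after white knock-down, 92 were lower for HP3 and 2 higher for HP6 after HP1 knock-down, and the interaction had 3 below and 1 above 0. The medians of the 9 probes were then 2.24 for Su(var)3-9, 3.04 for HP4 and 2.50 for HP5, and the interaction was -0.25 at hob and -0.050 at puf. Above and below 0 were then 1426 and 1112 for HP3 and 1011 and 653 for HP6 after white knock-down, and 1020 and 606 for HP1, against 730 and 286, 418 and 76, and 842 and 293 unscaled.
With only the arrays compared, HP3 was above 0 at 0 of the 9 probes and at 0 of all probes, Jra below 0 at 7, and HP3 lower after HP1 knock-down at 9. Over all probes 1931 were above 0 for HP3 after white knock-down, 2191 below and 2373 above 0 for Jra, 734 lower and 1716 higher for HP3, 1 higher for HP6, and the interaction had 136 below and 18 above 0. Jra at Atf6 probe LD12677 was then -0.17. This fit could not be made for HP6 after white knock-down, which has 2 arrays.
Without the 2 doubted arrays, Jra was below 0 at 3 of the 9 probes. Over all probes 99 were lower for HP3 and 0 for HP6, and the interaction had 1 below 0.
The replicate numbers of the knock-down groups agree in dye. For HP3, deviations of arrays with the same number correlated at 0.104, 0.0725 and 0.244, and those with different numbers at -0.209 to 0.0854. For HP6 it was 0.16 with the same number and -0.16 with different numbers. Whether arrays of the same number were handled together cannot be told from these values. With the replicate number as a block, HP3 was lower at 9 of the 9 probes, with 719 lower and 1750 higher over all probes.
Leaving out each array in turn gave 5 to 8 of the 9 probes above 0 for HP3, 7 for HP3 after white knock-down, 3 to 7 for HP6 after white knock-down, 0 below 0 for Jra and 1 to 3 lower for HP3. Over all probes it gave 257 to 422 above 0 for HP3, 326 to 543 for HP3 and 43 to 208 for HP6 after white knock-down, and 161 to 543 below and 521 to 853 above 0 for Jra. After HP1 knock-down 3 to 35 were lower and 180 to 771 higher for HP3, and 0 to 8 lower and 1 to 22 higher for HP6, and the interaction had 0 to 3 below and 0 to 16 above 0. Jra at Atf6 probe LD12677 ran from -0.25 to 0.67, the interaction from -0.13 to 0.20 at hob and from -0.34 to 0.43 at puf, and the HP6 difference from -0.40 to 0.21 and from -0.26 to 0.15 at the Atf6 probes GH05757 and LD12677. The medians of the 9 probes ran from 2.74 to 3.27 for HP1, 2.74 to 2.82 for Su(var)3-9, 3.43 to 3.77 for HP4, 2.87 to 2.92 for HP5 and 2.33 to 3.25 for HP6, so the order of HP1, HP6, HP5 and Su(var)3-9 depends on single arrays.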

Other observations

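Genes related to the 8 genes by family or function were counted from fixed lists. The lists were dynein and dynactin, cadherins and partners of kug, the unfolded protein response, ubiquitin proteases, and lipid transfer proteins with myotubularins. Of 69 genes listed 41 were measured, with 45 probes. HP1 was above 0 in limma at 6 of these 41 genes and below 0 at 1, Usp7 with -0.65, where 8.48% and 2.95% of all probes passed. The 6 were the axonemal dynein gene Dhc62B at 1.30 among 12 dynein and dynactin genes (list median 0.12), the cadherin gene Cad87A at 1.07 among 6 (median 0.16), the ubiquitin protease genes faf at 0.62 and Usp2 at 1.35 among 11 (median -0.09), and tweek at 1.56 and Mtmr6 at 1.54 among 5 of lipid transfer and myotubularins (median -0.04). None of the 7 measured genes of the unfolded protein response passed for HP1 (median 0.05). The median over all probes was -0.01.

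HP3 in untreated cells was above 0 at none of the 41 in limma, where 4.38% of all probes passed, and below 0 at Usp7 (-0.75) and Usp15-31 (-0.76), where 2.31% did. After white knock-down it was above 0 at robl (1.44), tweek (0.69) and Vamp7 (0.81), and below 0 at 3 genes, where 7.35% and 2.88% of all probes passed. After HP1 knock-down HP3 was higher than after white knock-down at the dynein light chain gene Dlc90F (1.73) and at PEK (1.02), a kinase gene of the unfolded protein response, and lower at none, where 7.43% and 0.443% of all probes passed. For HP6 that contrast called none of the 41 genes. Jra was above 0 at 5, the dynein light chain genes ctp at 2.25, Dlc90F at 1.72 and robl at 0.77, Hsc70-3, the chaperone gene of the endoplasmic reticulum, at 0.50, and the ubiquitin protease gene not at 0.58, and below 0 at CadN with -0.47, where 10.8% and 6.3% of all probes passed.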
